A study of Mus musculus with 6 samples.

Results

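The microRNA processing and Argonaute genes are the 10 genes *Drosha*, *Dgcr8*, *Xpo5*, *Dicer1*, *Tarbp2*, *Ago1*, *Ago2*, *Ago3*, *Ago4* and *Tnrc6a*, which make microRNAs from their hairpin precursors and put them to work. They were chosen by name, and all 10 were found among the 14968 genes of the expression table. Polyadenylated RNA of regenerating corneal epithelium was sequenced in 6 libraries of C57BL/6 mice. Of these, 3 came from control mice that received no streptozotocin (STZ) and 3 from mice with type 1 diabetes, taken 16 weeks after STZ, which kills pancreatic beta cells and so ends the supply of insulin. The mice were males, 6 to 8 weeks old when obtained, each library pooled the epithelium of 4 of them, and in both groups the tissue, which took in the limbus and some of the new central epithelium, was collected 24 h after the old epithelium had been scraped off. STZ acts on the whole animal, so the model is diabetes of the mouse and not of the cornea alone, and replicates differ as pools do, not as single mice. The study sequenced small RNAs beside the mRNAs. Small RNA values were not analysed here.

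A microRNA begins as a hairpin within a longer transcript. In the nucleus the RNase III enzyme Drosha, held by its RNA-binding partner Dgcr8, cuts the hairpin out, and Exportin 5 (*Xpo5*) carries it to the cytoplasm. There Dicer, with its partner protein encoded by *Tarbp2*, cuts off the loop, and an Argonaute protein keeps a single strand as its guide. A GW182 scaffold such as Tnrc6a then bridges Argonaute to the enzymes that shorten the poly(A) tail and remove the cap of the target mRNA. In skin and cornea of the mouse, epithelial microRNAs are known to take part in stratification and in the healing of wounds.

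To show what these enzymes act on, 3 mouse hairpins are given from RefSeq (GRCm38.p6), 5′ to 3′, with the mature arms in capitals. Mir223 is the source of miR-223-5p, the microRNA the study followed, and is best known for its high level in neutrophils and other myeloid cells. It lies at chrX:96242817-96242926 (+), and its arms are separated by a loop of 19 bases that Dicer removes. Mir451a, at chr11:78073170-78073241 (+), has a single annotated arm that runs into the loop. It is too short for Dicer and is known to be cut by the slicing activity of Ago2 instead. Mir1306, at chr16:18284239-18284317 (-), lies within a coding exon of *Dgcr8* itself, on the same strand. Cutting of hairpins in the *Dgcr8* mRNA by Drosha is known from mouse and human cells as a feedback on the level of Dgcr8.
Mir223: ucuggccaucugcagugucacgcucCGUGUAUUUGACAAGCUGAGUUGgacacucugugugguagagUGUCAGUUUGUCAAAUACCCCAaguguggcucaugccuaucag
Mir451a: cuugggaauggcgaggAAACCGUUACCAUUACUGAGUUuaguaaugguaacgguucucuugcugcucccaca
Mir1306: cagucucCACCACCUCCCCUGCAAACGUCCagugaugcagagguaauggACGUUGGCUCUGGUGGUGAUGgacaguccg

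Levels are given in FPKM, the number of fragments of a gene per kilobase of its transcript, scaled by all fragments mapped in that library. FPKM summed to between 308757 (diabetic replicate 3) and 331926 per library. Read counts were not analysed here, so no counting error can be given for single values. Summed over 8 genes of corneal epithelium (*Krt12*, *Krt5*, *Krt14*, *Pax6* and others, all detected) the level was 14900 to 15700 FPKM in control and 14600 to 17200 FPKM in diabetic libraries. Genes taken as markers of other cell types had unequal sums between libraries. Neutrophil genes (11 of 12 in the table, *Camp* and *Elane* at 0 in all libraries) summed to 355 to 676 FPKM in control libraries. In diabetic ones they summed to 630 to 988 FPKM, with the most in diabetic replicate 1. *Ngp* and *Mpo* also lay below the expression filter used below. Of the 7 neutrophil genes tested, 1 was higher and 0 lower in diabetic libraries at an unadjusted limma p under 0.05 (4.61% and 6.91% of all genes). The list holds *S100a8* and *S100a9*, and such a sum does not tell which cells made the RNA. Lens genes (8 of 8) summed to 10.6 to 18.7 FPKM in control and to 15.3 to 245.0 FPKM in diabetic libraries, with the most in diabetic replicate 2. Erythrocyte genes (6 of 6) summed to 41.3 to 107 FPKM in control libraries and to 9.9 to 22.3 FPKM in diabetic ones, and stromal keratocyte genes (7 of 7) to 392 to 423 FPKM and to 258 to 379 FPKM. Macrophage genes (9 of 9) summed to 41.5 to 49.7 FPKM and to 36.0 to 47.9 FPKM, and conjunctival and goblet genes (5 of 6 in the table) to 1860 to 2180 FPKM and to 1950 to 2440 FPKM. Vessel genes (4 of 4) summed to no more than 1.55 FPKM in any library, and of 7 T and NK cell genes 1, *Nkg7*, was in the table. At an unadjusted limma p under 0.05, 2 of 8 tested epithelium genes were higher and 1 lower. Of 5 conjunctival and goblet genes 3 were higher and 1 lower, and of 8 lens genes 3 and 0. Of 5 erythrocyte genes 0 were higher and 4 lower, of 7 keratocyte genes 0 and 3, and of 8 macrophage genes 0 and 2. *Nkg7* was higher, and the 1 tested vessel gene passed in neither direction. The part of these cells in the values below was not tested, and in bulk RNA fewer cells of a type cannot be told apart from less RNA per cell.

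Diabetic were set against control libraries to ask whether the machinery that makes and uses microRNAs is itself expressed differently in epithelium that regenerates under diabetes. For the genes that could be tested the difference between the groups was no larger than that of *Tarbp2*, 0.22 on the log2 scale. Of the 10 genes 9 passed the expression filter, a mean of at least 0.5 FPKM in 1 or both groups. *Ago4* did not pass it. In limma 0 of these 9 passed an adjusted p of 0.05, against 0.0658% of the 12149 genes tested (0.0412% higher and 0.0247% lower in diabetic libraries). At an unadjusted p under 0.05 there were 0 of 9 as well, against 11.5% of all genes (4.61% higher and 6.91% lower). The thresholds of the study combine an unadjusted p under 0.05 with a difference of 1.5-fold or more. The study took that p from ballgown, and here the thresholds were applied to the limma p and to FPKM + 1. They were passed by 0 of 9, against 2.49% (1.23% higher and 1.26% lower). The values of the groups overlapped for all 10, whereas they did not overlap for 17.6% of the genes tested (6.68% higher and 10.9% lower). The median log2 fold change over the 9 genes, on log2(FPKM + 1) as all fold changes here, was -0.04, equal to that over all genes tested (-0.04).

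**Figure D1:**
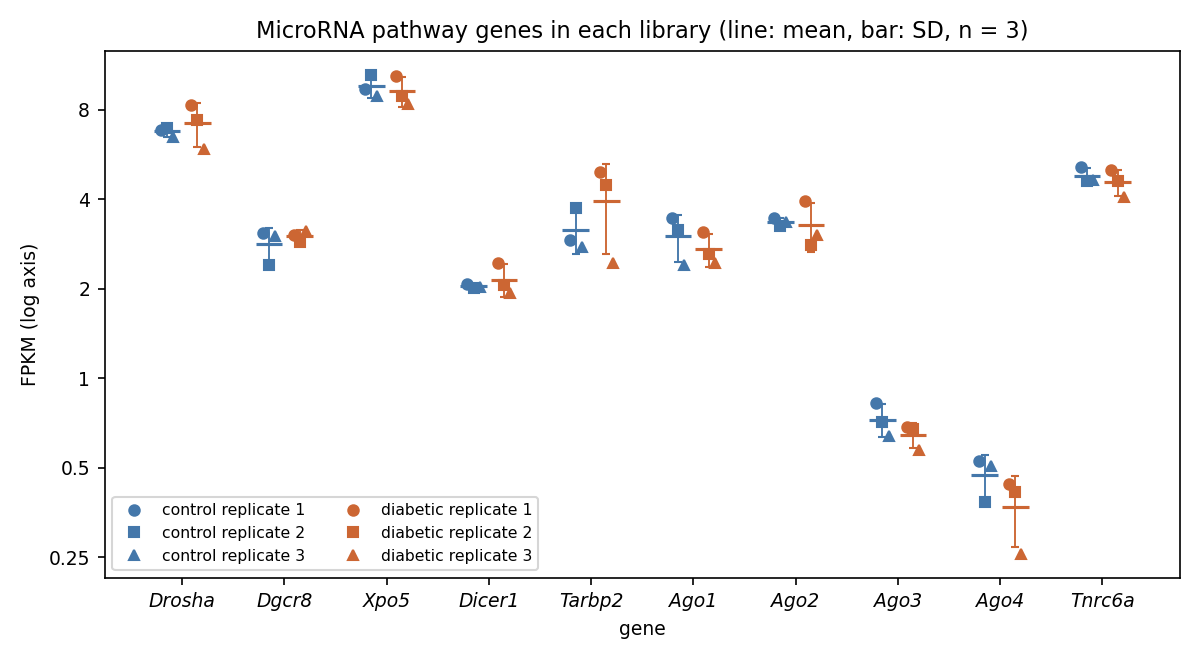
FPKM of each of the 10 genes (log axis) in the 3 control and 3 diabetic libraries, with points for libraries, horizontal lines for the group means and bars for the SD. *Xpo5* lies highest at 8.40 to 10.5 FPKM and *Ago4* lowest at 0.257 to 0.527 FPKM, and the points of the groups overlap for every gene.

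Drosha and Dgcr8 form the Microprocessor of the nucleus. *Drosha* (ENSMUSG00000022191.16, chromosome 15, 12824815 to 12935291; positions are on GRCm38) was at 6.86, 6.97 and 6.47 FPKM in control replicates 1 to 3 and at 8.30, 7.39 and 5.93 FPKM in diabetic replicates 1 to 3. The highest and the lowest value were thus both from diabetic libraries. Its log2 fold change was 0.07 (SE 0.127, 95% interval -0.23 to 0.36; limma adjusted p = 0.873). *Dgcr8* (ENSMUSG00000022718.11, chromosome 16, 18253948 to 18289249) was at 3.08, 2.41 and 3.02 FPKM in control and at 3.04, 2.88 and 3.13 FPKM in diabetic libraries. Apart from the lower control replicate 2, the libraries lay within a narrow range. The log2 fold change of *Dgcr8* was 0.07 (SE 0.108, interval -0.18 to 0.32; limma adjusted p = 0.839). It was the exception among these genes in diabetic replicate 3, where it had its highest value and 9 of the 10 genes lay below their control mean.

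There was more *Drosha* than *Dgcr8* mRNA in each library. Per library the ratio of their FPKM was 2.22, 2.89 and 2.14 in control and 2.73, 2.56 and 1.89 in diabetic libraries. On the log2 scale this ratio was 1.26 ± 0.237 in control and 1.24 ± 0.281 in diabetic libraries (SD, n = 3), and the groups overlapped. In the annotation (GENCODE M21, GRCm38) exons of *Dgcr8* also hold a second predicted hairpin, Gm24572, outside the coding part, and touch exons of the predicted coding gene *Gm49776* on the same strand and of *Trmt2a* on the opposite one (3.01 to 4.56 FPKM). The library kit marks strand, but whether the quantification used it is not given in the sources used here.

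Exportin 5 carries the hairpins out of the nucleus. *Xpo5* (ENSMUSG00000067150.5, chromosome 17, 46202855 to 46242299) was at 9.41, 10.5 and 8.87 FPKM in control and at 10.4, 8.92 and 8.40 FPKM in diabetic libraries. It had the highest level of the 10 genes in every library. By its mean over the 6 libraries it stood above 66.5% of all genes tested. Control replicate 2 and diabetic replicate 1 stood side by side at the top, and the log2 fold change was -0.05 (SE 0.115, interval -0.32 to 0.22; limma adjusted p = 0.898).

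Dicer and its partner act in the cytoplasm. *Dicer1* (ENSMUSG00000041415.10, chromosome 12, 104687742 to 104751952) was at 2.07, 2.02 and 2.03 FPKM in control and at 2.45, 2.06 and 1.94 FPKM in diabetic libraries. The control libraries differed little among themselves (coefficient of variation 1.26%), and the diabetic ones more (12.4%), with replicate 1 above the rest. The log2 fold change was 0.05 (SE 0.101, interval -0.19 to 0.28; limma adjusted p = 0.886). *Tarbp2* (ENSMUSG00000023051.10, chromosome 15, 102518192 to 102523676) encodes the double-stranded RNA-binding protein that stabilises Dicer. It was at 2.91, 3.75 and 2.77 FPKM in control and at 4.94, 4.46 and 2.44 FPKM in diabetic libraries. Diabetic replicates 1 and 2 lay above every control library and replicate 3 below every one of them.

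*Tarbp2* had the largest difference of the tested genes, a log2 fold change of 0.22 (SE 0.211, interval -0.27 to 0.71; limma adjusted p = 0.718). It was the only 1 of the 9 whose interval reached beyond 1.5-fold on FPKM + 1. That scale narrows the intervals of genes at low levels, so a difference of 1.5-fold in FPKM is not excluded for them. Without diabetic replicate 3 the log2 fold change of *Tarbp2* was 0.47 (limma unadjusted p = 0.0133, adjusted p = 0.473), and without diabetic replicate 1 it was 0.07 (adjusted p = 0.900). It was 0.13 without diabetic replicate 2 (adjusted p = 0.877). The log2 ratio of *Dicer1* over *Tarbp2* was -0.49, -0.89 and -0.45 in control and -1.01, -1.11 and -0.33 in diabetic libraries, with means of -0.61 ± 0.245 and -0.816 ± 0.428 (SD, n = 3). Values of the groups overlapped.

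**Figure D2:**
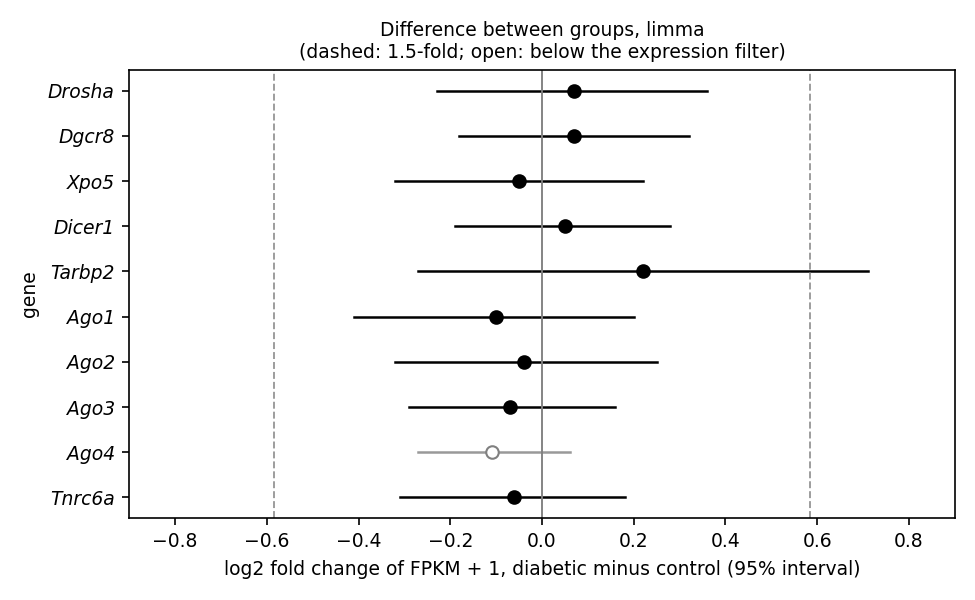
Log2 fold change of FPKM + 1 (diabetic minus control) of each gene with its 95% interval from limma. Dashed lines mark 1.5-fold on that scale, and the open point is *Ago4*, taken from the fit without the expression filter. Every interval contains 0, and only that of *Tarbp2* (-0.27 to 0.71) crosses a dashed line.

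The 4 Argonaute genes encode the proteins that hold the microRNA. *Ago2*, the Argonaute best known for cutting RNA, lies at chromosome 15, 73095844 to 73184840 (ENSMUSG00000036698.10). The other 3 are neighbours on the minus strand of chromosome 4, with *Ago3* (ENSMUSG00000028842.15) at 126331704 to 126429556, *Ago1* (ENSMUSG00000041530.16) at 126435012 to 126468583 and *Ago4* (ENSMUSG00000042500.11) at 126489541 to 126533472, together within 202 kb. *Ago2* was at 3.46, 3.25 and 3.35 FPKM in control and at 3.96, 2.81 and 3.04 FPKM in diabetic libraries. As for *Drosha*, the control values stood close together and the diabetic ones lay on both sides of them (log2 fold change -0.04, SE 0.122, interval -0.32 to 0.25; limma adjusted p = 0.932), and with median-of-ratios scaling the sign of this difference turned (0.01). Exons of *Ago2* touch exons of *Chrac1* on the opposite strand, which was at 14.8 to 17.8 FPKM.

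*Ago1* was at 3.45, 3.16 and 2.41 FPKM in control and at 3.11, 2.61 and 2.44 FPKM in diabetic libraries. Its lowest value was that of control replicate 3, and its log2 fold change was -0.10 (SE 0.133, interval -0.41 to 0.20; limma adjusted p = 0.800). *Ago3* was at 0.826, 0.714 and 0.641 FPKM in control and at 0.686, 0.674 and 0.576 FPKM in diabetic libraries, with a log2 fold change of -0.07 (SE 0.0967, interval -0.29 to 0.16; limma adjusted p = 0.820). At these low levels the added 1 FPKM shrinks the fold change and its interval. With 0.1 FPKM added instead the fold change of *Ago3* was -0.15 (SE 0.215; limma adjusted p = 0.828). *Ago4*, below the filter, was at 0.527, 0.384 and 0.509 FPKM in control and at 0.441, 0.414 and 0.257 FPKM in diabetic libraries. In the fit without filter, over 14594 genes, its log2 fold change was -0.11 (SE 0.0706, interval -0.27 to 0.06; limma adjusted p = 0.631). The means of all 3 neighbours on chromosome 4 were thus lower in the diabetic group, each with overlapping libraries and an interval that contains 0.

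The summed FPKM of the Argonaute genes was 7.56 ± 0.678 in control and 7.00 ± 1.04 in diabetic libraries (SD, n = 3), and ranged from 6.32 to 8.27. *Ago2* made up 44.6 ± 3.47% of it in control and 46.6 ± 2.94% in diabetic libraries, and *Ago1* 39.6 ± 4.05% and 38.9 ± 1.12%. *Ago3* gave 9.59 ± 0.367% and 9.29 ± 1.00%, and *Ago4* 6.28 ± 1.12% and 5.27 ± 1.15%. These shares overlapped between the groups for each gene. *Ago2* was the largest share in all 6 libraries, with 41.9% beside 41.7% for *Ago1* in control replicate 1 and 48.5% beside 34.9% in control replicate 3.

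**Figure D3:**
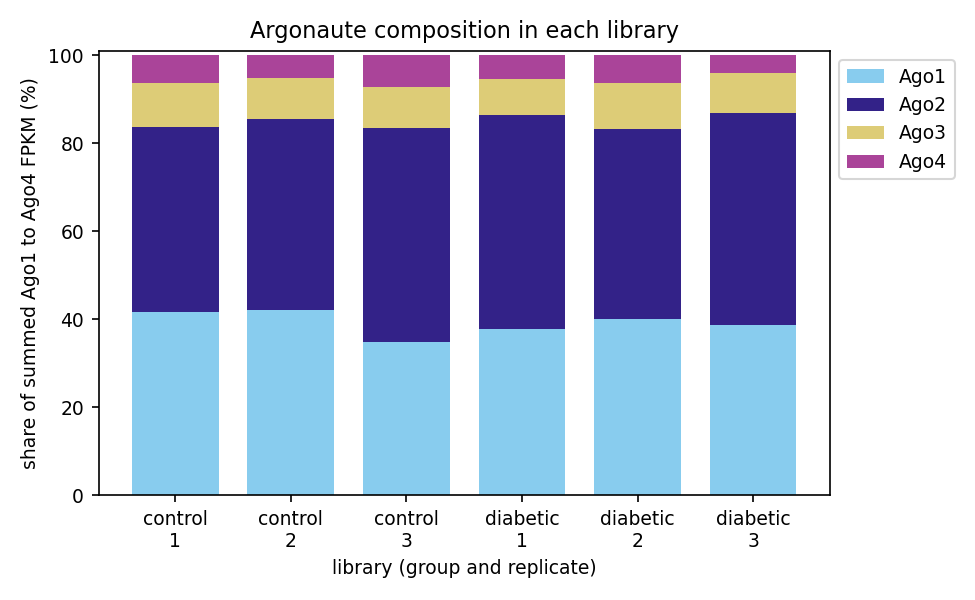
Share of *Ago1*, *Ago2*, *Ago3* and *Ago4* in their summed FPKM (%), as stacked bars for each library. *Ago2* takes between 41.9% and 48.5%, *Ago1* between 34.9% and 42.1%, and *Ago3* and *Ago4* together the small rest in control and diabetic libraries.

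*Tnrc6a* (ENSMUSG00000052707.8, chromosome 7, 123123885 to 123195296) encodes the scaffold that joins Argonaute to the mRNA decay enzymes. It was at 5.14, 4.62 and 4.65 FPKM in control and at 5.02, 4.60 and 4.08 FPKM in diabetic libraries. Replicate 1 was the highest of either group, and the log2 fold change was -0.06 (SE 0.106, interval -0.31 to 0.18; limma adjusted p = 0.859). Its paralogs, which do the same work, were lower in level. *Tnrc6b* was at 1.72 ± 0.0983 and 1.58 ± 0.0658 FPKM and *Tnrc6c* at 1.13 ± 0.101 and 1.19 ± 0.187 FPKM in control and diabetic libraries (SD, n = 3). Their log2 fold changes were -0.08 (limma adjusted p = 0.781) and 0.03 (limma adjusted p = 0.933). An exon of *Tnrc6a* touches one of the lincRNA gene *Gm45846* on the same strand.

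Ordered by their mean FPKM over the 6 libraries, the genes ran from *Xpo5* (9.40) over *Drosha* (6.99), *Tnrc6a* (4.69), *Tarbp2* (3.54), *Ago2* (3.31), *Dgcr8* (2.93), *Ago1* (2.86), *Dicer1* (2.10) and *Ago3* (0.686) to *Ago4* (0.422). The first 2 steps, and those from *Dicer1* to *Ago3* and from *Ago3* to *Ago4*, were between genes whose ranges over the 6 libraries did not overlap. *Tnrc6a* lay above *Tarbp2* and *Ago1* above *Dicer1* in 6 of 6 libraries, although their ranges overlapped. From *Tarbp2* over *Ago2* and *Dgcr8* to *Ago1* the order changed from library to library. Among the genes tested *Drosha* stood above 58.5%, *Dicer1* above 25.9% and *Ago3* above 5.79% by mean FPKM.

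The diabetic libraries differed among themselves. In diabetic replicate 1, 8 of the 10 genes lay above their control mean, and the median deviation of the 9 tested genes on the log2 scale was 0.10, beside 0.01 for all genes tested. In diabetic replicate 3, 9 of the 10 lay below it, with a median of -0.16 beside -0.13 for all genes. Diabetic replicate 2 was near the controls (median -0.04 beside -0.02). Of the 6 libraries, diabetic replicate 3 was the lowest for 7 of the 10 genes and for 42.3% of all genes tested, and it also had the lowest FPKM sum. Diabetic replicate 1, the library with the highest sum over the neutrophil genes, was the highest for 4 of the 10 genes (*Drosha*, *Dicer1*, *Tarbp2* and *Ago2*) and for 21.4% of all genes. Control replicate 1 was the highest for 4 of the 10 as well (*Ago1*, *Ago3*, *Ago4* and *Tnrc6a*) and for 27.8% of all genes. There too 8 of the 10 lay above their control mean. The part of the FPKM sum or of the neutrophil genes in the values of these libraries was not tested.

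**Figure D4:**
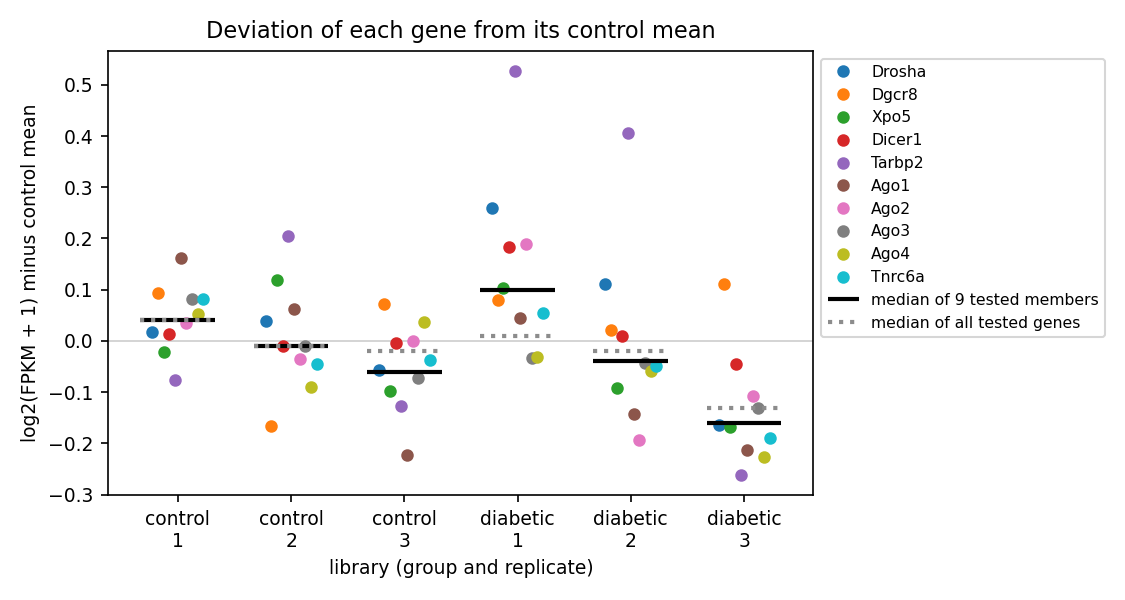
Deviation of each of the 10 genes from its control mean on log2(FPKM + 1) in the 6 libraries, with black lines for the median of the 9 tested genes and dotted grey lines for the median of all tested genes. Most points lie above 0 in diabetic replicate 1 (median 0.10) and below it in diabetic replicate 3 (median -0.16), where the median of all genes is low too.

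The genes around this core were read from a list of 78 cofactors, effectors and partners, of which 72 passed the filter. *Piwil2*, of the PIWI clade of Argonaute proteins that works in the germ line, was at 0 to 0.176 FPKM, and *Lin28b*, which blocks the processing of let-7, at 0 to 0.0157 FPKM. Both lay below the filter, while *Lin28a*, *Trim71*, *Piwil1* and *Piwil4* were not found by name among the genes of the expression table. In limma 0 of the 72 passed the adjusted threshold. At an unadjusted p under 0.05 there were 6 (8.33%, against 11.5% of all genes), 2 of them higher and 4 lower. This number was 2 when control replicate 1 was left out, 3 when control replicate 2, diabetic replicate 2 or diabetic replicate 3 was, and 11 when diabetic replicate 1 was. The share of all genes moved in the same fits, from 7.60% when control replicate 1 was left out (2.78% of the 72) to 15.1% when diabetic replicate 1 was (15.3% of the 72). In 12 of the 72 the values of the groups lay apart (16.7%, against 17.6%), and the median log2 fold change was -0.08, beside -0.04 over all genes.

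The genes with an unadjusted p under 0.05 and a higher mean in diabetic libraries were *Adar* and *Fkbp5*. *Adar*, which edits adenosines in double-stranded RNA including microRNA precursors and is known as an interferon-inducible gene, was at 3.87, 5.42 and 4.59 FPKM in control and at 6.70, 5.66 and 6.44 FPKM in diabetic libraries. Every diabetic library lay above every control library, with a log2 fold change of 0.38 (SE 0.129; limma adjusted p = 0.344). Without control replicate 1 the log2 fold change of *Adar* was 0.28 (limma unadjusted p = 0.0759). The unadjusted limma p was also above 0.05 without diabetic replicate 1 (0.0605) or 3 (0.052), and with estimated library weights (0.0817). *Fkbp5*, an Hsp90 co-chaperone and a known target of the glucocorticoid receptor, was at 5.53, 6.40 and 6.77 FPKM in control and at 11.7, 10.2 and 16.9 FPKM in diabetic libraries, again without overlap (log2 fold change 0.92, SE 0.179; limma adjusted p = 0.126). It was the only 1 of the 72 past the thresholds of the study (1 of 72, against 2.49% of all genes), and it is a gene the study itself singled out from these same libraries. The editing gene *Adarb1* (0.15, limma adjusted p = 0.672) and the passenger-strand nuclease subunit gene *Tsnax* (-0.21, limma adjusted p = 0.525) had the next smallest p in the roles of *Adar* and *Fkbp5*. *Tsnax* was at -0.11 without diabetic replicate 3, and *Adarb1* at 0.08 without control replicate 3 and 0.25 without control replicate 1. In these roles *Fkbp5* was 1 of 2 genes out of 9 with a log2 fold change above 0, and *Adar* 1 of 2 out of 3.

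The 4 genes with an unadjusted p under 0.05 and a lower mean in diabetic libraries were *Cnot6l*, *Cnot6*, *Pabpc1* and *Lsm14b*. *Cnot6l*, a deadenylase subunit of the CCR4-NOT complex that GW182 proteins recruit, was at 5.42, 4.91 and 4.73 FPKM in control and at 3.17, 3.17 and 3.27 FPKM in diabetic libraries. The diabetic values lay close together and below every control library (log2 fold change -0.52, SE 0.0945; limma adjusted p = 0.110). With estimated library weights *Cnot6l* passed the adjusted threshold (-0.53, adjusted p = 0.0340), in a fit where 129 of all genes passed it (1.06%) instead of 8. Its paralog *Cnot6* was at 21.8, 19.8 and 20.4 FPKM in control and at 18.7, 17.0 and 12.2 FPKM in diabetic libraries, with the lowest value in diabetic replicate 3 (log2 fold change -0.37, SE 0.155; limma adjusted p = 0.422). Without that library it was -0.20 (adjusted p = 0.677). Of the 13 genes listed under CCR4-NOT, among them its partners *Tob1* and *Tob2*, 2 had an unadjusted p under 0.05 (15.4%, against 11.5% of all genes) and 11 did not. The log2 fold change was below 0 for 9 of the 13. Among those that did not pass, the scaffold gene *Cnot1* was at 0.03 and the catalytic gene *Cnot7* at -0.30 (limma adjusted p = 0.961 and 0.663).

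*Pabpc1*, the main cytoplasmic poly(A)-binding protein, was at 226, 228 and 210.0 FPKM in control and at 212, 166 and 141 FPKM in diabetic libraries, and the groups overlapped (log2 fold change -0.38, SE 0.145; limma adjusted p = 0.393). Without diabetic replicate 3 it was -0.24 (adjusted p = 0.694). *Pabpc4* had a log2 fold change of -0.29 (limma adjusted p = 0.551), which was -0.15 when diabetic replicate 3 was left out and -0.47 when diabetic replicate 1 was (adjusted p = 0.860 and 0.172). *Lsm14b*, of a family found in cytoplasmic mRNA-protein granules, was at 14.2, 13.5 and 13.9 FPKM and at 12.3, 11.4 and 11.5 FPKM (log2 fold change -0.22, SE 0.091; limma adjusted p = 0.411), without overlap. With 1 library left out, its unadjusted limma p was 0.0404 to 0.114, and under 0.05 only without diabetic replicate 1. The 5′-to-3′ exonuclease gene *Xrn1* had a log2 fold change of -0.37 (limma adjusted p = 0.486), with overlapping groups, and of -0.64 with 0.1 FPKM added in place of 1 (adjusted p = 0.489). In the fit with a replicate block *Xrn1* took the place of *Lsm14b* among the genes with an unadjusted p under 0.05 (limma adjusted p = 0.386 for *Xrn1* and 0.554 for *Lsm14b*).

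In the other roles no gene passed an unadjusted p under 0.05 in the main fit. Of the 11 nuclear cofactors, the splicing factor gene *Srsf3* (-0.22, limma adjusted p = 0.491) and the cap-binding gene *Ncbp2* (-0.26, limma adjusted p = 0.538) had the smallest p, both lowest in diabetic replicate 3 at 65.7 and 20.9 FPKM. Without that library they were at -0.12 and -0.10. For transport these were *Ipo8*, an importin reported to bind Argonaute (-0.14, limma adjusted p = 0.619), and *Xpo1* (-0.09, limma adjusted p = 0.825). Among the 7 tested genes of uridylation and decay they were the exonuclease genes *Dis3l2* (0.15, limma adjusted p = 0.628) and *Pnpt1* (0.12, limma adjusted p = 0.628), each without overlap. *Dis3l2* was at 0.06 without diabetic replicate 3. Of the RNA-binding partners of Argonaute, the LIM-domain genes *Ajuba* (0.19, limma adjusted p = 0.547) and *Wtip* (0.18, limma adjusted p = 0.626) came first, with overlapping groups. *Ajuba* was at 0.24 under median-of-ratios scaling (limma unadjusted p = 0.0184, adjusted p = 0.291). Without diabetic replicate 3 it was at 0.26 (limma unadjusted p = 0.031, adjusted p = 0.559). *Srsf3* had an unadjusted limma p of 0.0416 under quantile normalization (adjusted p = 0.357). That of *Wtip* stayed above 0.05 in every alternative. *Wtip* was at 0.10 without diabetic replicate 3 and also without control replicate 2. *Ipo8* was at -0.09 without diabetic replicate 3.

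**Figure D5:**
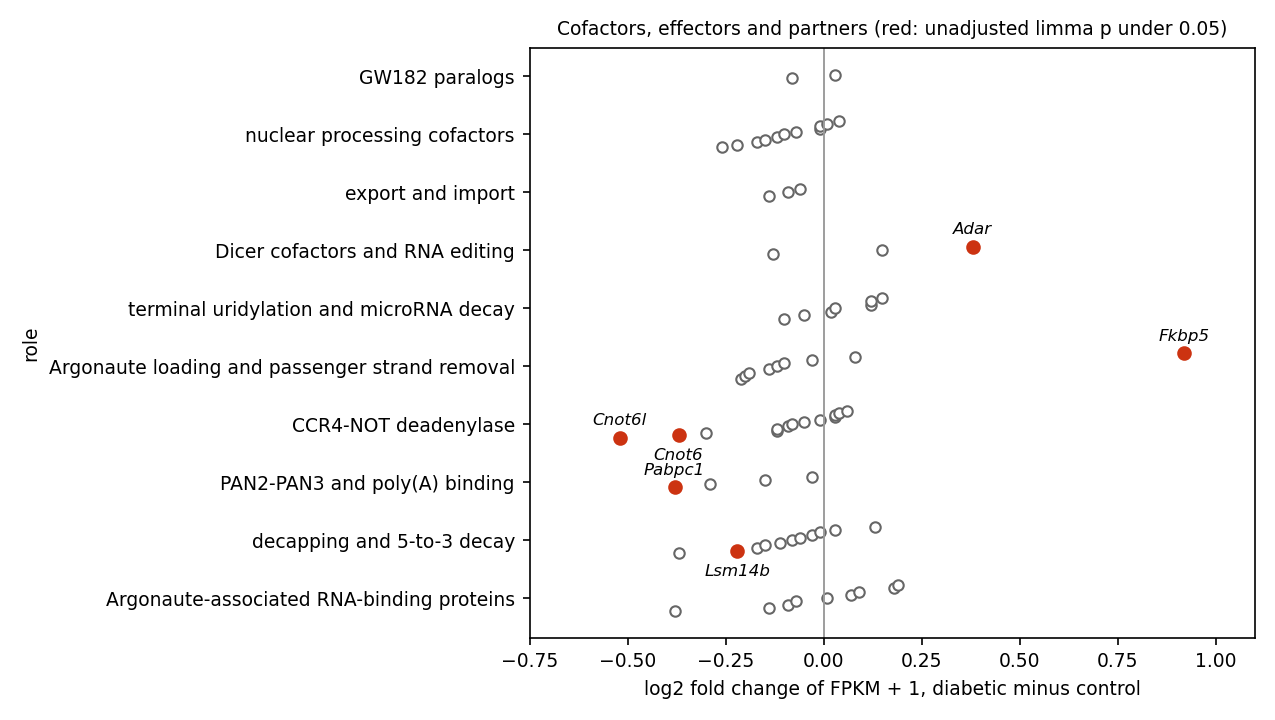
Log2 fold change of FPKM + 1 (diabetic minus control) of 72 further genes of the pathway, by role. Red points are the 6 with an unadjusted limma p under 0.05, of which *Adar* (0.38) and *Fkbp5* (0.92) lie above 0 and *Cnot6l* (-0.52), *Cnot6* (-0.37), *Pabpc1* (-0.38) and *Lsm14b* (-0.22) below it.

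The promoters and 3′ untranslated regions of the 10 genes were read from the annotation. RefSeq promoter windows (300 bases around an annotated start, GRCm38.p6) were matched for 9 of them and not for *Ago2*. Their GC content was 59.0% to 83.3%, with 44.7% for *Tnrc6a* as the exception, where the median over 32851 promoters was 52.7%. The Argonaute mRNAs have long 3′ untranslated regions. In the transcript with the longest one (GENCODE M21) these held 12742 bases in *Ago3*, 11064 in *Ago2*, 4491 in *Ago1* and 3682 in *Ago4*, compared with 1123 at the median of 12019 tested genes and 169 in *Drosha*. FPKM is scaled to transcript length, so the level of such a gene depends on which transcript model the reads were assigned to.

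The mature arms of Mir223 are shown with their seed, bases 2 to 8, in capitals, because the seed sets which mRNAs a microRNA pairs with. The arms have different seeds.
miR-223-5p: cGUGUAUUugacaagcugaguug
miR-223-3p: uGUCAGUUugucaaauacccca
A match to the seed of miR-223-5p (AATACAC, mRNA strand only) was found in the 3′ untranslated region of 1 of the 10 genes, *Ago3*, and in 7.84% of the 12019. A match to that of miR-223-3p (AACTGAC) was found in 3, with 2 in *Ago1*, 2 in *Ago2* and 3 in *Ago3*, and in 9.02% of the 12019. These genes are among those with the longest regions, and a match to a seed is a description and not a site shown to be used.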

How the data were processed

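Sample titles gave the group and the replicate number. The kit (KAPA) keeps the strand. The submitters' processing notes name FastQC, cutadapt, HISAT2, StringTie and the build GRCm38, with versions not given in the sources used here. The table deposited by the authors holds FPKM per gene.

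Genes with a mean of at least 0.5 FPKM in 1 or both groups were kept (12149 kept, 2819 removed). The value tested was log2(FPKM + 1), in limma 3.58.1 under R 4.3.3, with group as the only term, an intensity trend and two-sided tests. Adjustment was by Benjamini-Hochberg over the 12149 genes. Residual degrees of freedom were 4 and prior ones 3.65. Fold changes are diabetic minus control, and intervals are 95% intervals of that fit. With 3 libraries a group, the exact permutation test on single genes (two-sided) has 0.1 as its smallest p. For the 10 genes it gave 0.3 to 0.8. The fit was tested on simulated data. Shares and ratios between the genes were described without a test.

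The 10 genes, the list of 78 further genes and the marker lists were chosen with earlier results of these data known. Named from the list of 78 are the 2 tested genes with the smallest p in each role, genes past a threshold, the paralogs of *Tnrc6a* and genes below the filter. *Cnot1* and *Cnot7* were named after their values were seen. *Tut4* and *Tut7* were found under their older symbols. Alternatives were other pseudocounts, filters, scalings and variance models, a replicate block and each library left out in turn. Overlaps between genes and untranslated regions were read from GENCODE M21, whose ends matched the table for 7 of the 10 genes, and hairpins and promoters from RefSeq tables.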

Additional observations from a re-analysis of the deposited data

How the results depend on the processing

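In each of 17 alternatives 0 of the genes tested passed the adjusted threshold, and their smallest adjusted p was 0.454. Of the 10 genes 8 to 10 were tested in each, without *Ago3* at a filter of 1 FPKM and with *Ago4* in only 2, without filter and without control replicate 2. Directions close to 0 were not stable. Under median-of-ratios scaling, which moved the median of all genes from -0.0442 to 0.00086, the log2 fold change of *Ago2* was 0.0054. With library weights those of *Tnrc6c* and *Xpo1* were -0.022 and 0.036, and 1 of the 72 further genes, *Cnot6l*, passed the adjusted threshold (1.39%, against 1.06% of all genes in that fit, and 0.0658% without weights). With 1 library left out, the log2 fold change was -0.026 to 0.19 for *Drosha*, -0.013 to 0.12 for *Dgcr8*, -0.13 to 0.0081 for *Xpo5*, -0.019 to 0.10 for *Dicer1*, 0.07 to 0.47 for *Tarbp2*, -0.21 to -0.02 for *Ago1*, -0.15 to 0.041 for *Ago2*, -0.11 to -0.03 for *Ago3*, -0.12 to 0.0028 for *Tnrc6a*, -0.012 to 0.10 for *Tnrc6c* and -0.17 to 0.012 for *Xpo1*. The median over the tested genes was -0.09 to 0.04, 0 to 1 of them had an unadjusted p under 0.05 (*Tarbp2*, without diabetic replicate 3), and of the further genes 2 to 11 had. The cause was not tested.

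The study speaks of paired samples without saying what pairs them, and the labels give no shared animal, batch or day for a replicate number. Deviations of same-numbered libraries from their group means correlated at -0.198, 0.056 and -0.0862 across genes, so the block was kept as an alternative. Those of differently numbered libraries correlated at -0.227 (control replicate 3 with diabetic replicate 2) to 0.291 (control replicate 3 with diabetic replicate 1). With a replicate block 0 of the 9 tested genes and 0 of the 72 passed the adjusted threshold, 6 of the 72 had an unadjusted p under 0.05 (with *Xrn1* in place of *Lsm14b*), and 3 instead of 8 of all genes passed the adjusted threshold. Fold changes of genes near or below 1 FPKM, such as *Ago3*, *Ago4* and *Xrn1*, depend on the pseudocount. With 3 pools a group, differences within the intervals given are not excluded.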

Other observations

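The spread between pools differed among the 10 genes. The coefficient of variation was larger in the diabetic than in the control group for 7 of the 10, among them *Drosha* (16.6% against 3.89%), *Dicer1* (12.4% against 1.26%) and *Ago2* (18.7% against 3.16%), and smaller for *Dgcr8* (4.17% against 13.1%), *Ago1* (12.8% against 17.8%) and *Ago3* (9.32% against 12.8%). It was larger in the diabetic group for 57.3% of all genes tested. The median coefficient over the 10 genes was 10.7% in control and 12.6% in diabetic libraries, beside 11.3% and 13.2% over all genes.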
